A study of Mus musculus with 11 samples.

Results

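The genes described here encode the nuclear subunits of the 5 oxidative phosphorylation complexes. They were taken from the deposited mouse gene table as protein-coding rows whose symbols begin with Ndufa, Ndufb, Ndufc, Ndufs or Ndufv and a digit, with Uqcr, with Atp5 or with Cox and a digit from 4 to 8, together with Sdha, Sdhb, Sdhc, Sdhd and Cyc1. This gave 85 of 48897 genes, of which 37 carry names of complex I, 4 of complex II, 9 of complex III, 18 of complex IV and 17 of complex V. Of the 85, 83 passed the filter on low counts and were tested. Cox7b2 and Cox8c, isoforms known from the germ line, did not pass, with at most 1 count in any library.

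Messenger RNA had been sequenced from injured arteries collected on day 7 after injury, in Nrf3 knockout mice (Nrf3-/-) and in flox control mice. Wire injury of the femoral artery gave 3 control and 3 knockout libraries, and ligation of the carotid artery 3 control and 2 knockout libraries. Nrf3, a CNC-family transcription factor, is encoded by Nfe2l3, and the comparison asked what its loss does in the injured wall. The sources used here name no Cre driver, strain, sex or age, and do not say whether libraries came from separate animals or pooled vessels, so p-values measure only the spread between these libraries.

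Complex I passes electrons from NADH, and complex II from succinate, to coenzyme Q. Complex III passes them on to cytochrome c and complex IV to oxygen, and the proton gradient built by complexes I, III and IV drives ATP synthesis by complex V. Mitochondrial DNA encodes a small core of these complexes, and nuclear genes encode the rest. Some complex IV subunits exist as tissue-restricted isoforms, so that muscle, brown fat and lung build enzymes of different composition.

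Library totals ran from 43698644 to 55998563 counts. Nfe2l3 had 37 to 85 counts in the control libraries and 0 to 11 in the knockout libraries. Smooth muscle markers were abundant in every library, with the 8 listed genes summing to 6896 to 14512 CPM (counts scaled to a common library size). Marker RNA of tissues found around the vessel differed widely between libraries. The 18 skeletal muscle markers summed to 877, 7702 and 4183 CPM in the femoral controls, 279, 2263 and 578 in the femoral knockouts, 226, 78.5 and 1029 in the carotid controls and 44.8 and 722 in the carotid knockouts. Ucp1, the uncoupling protein that defines brown adipocytes, stood at 0.0368 to 1.24 CPM in the femoral libraries and at 35.3, 30.9, 2.31, 14.4 and 204 CPM in the carotid libraries, controls first. Of the 8 brown adipocyte markers tested, 7 were higher in carotid than in femoral controls by fitted log2 difference and 1, Kng2, was lower. The 7 T cell markers summed to 9.21 to 17.4 CPM in femoral controls and 36.6 to 44.2 in femoral knockouts, and to 4.22 to 8.60 and 31.2 to 37.2 CPM in the carotid groups. In such bulk samples, fewer cells of a type and less RNA per cell cannot be told apart.

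The subunit genes were highly expressed in every group. On the TPM scale, which also divides counts by gene length, so that genes can be compared with each other, complex V members had the highest median, at 321 TPM over 11 libraries. Complex IV followed at 228, complex II at 166, complex III at 164 and complex I at 155 TPM. Cox6a1 and Cox4i1, the common isoforms of 2 complex IV subunits, had means of 882 and 804 TPM. Atp5b, the catalytic beta subunit of ATP synthase, had a mean of 824 TPM, and Atp5e, its small epsilon subunit, had 702 TPM. Uqcrh, the hinge protein of complex III, had a mean of 401 TPM and the small subunit gene Uqcr11 had 381 TPM. Ndufa4, named for complex I but now placed in complex IV, had a mean of 550 TPM, and Ndufa3, an accessory subunit of complex I, had 351 TPM. Sdha and Sdhb, the flavoprotein and iron-sulfur subunits of complex II, both had means of 191 TPM. At the low end, Atp5s, a coupling factor rather than a structural subunit, had 4.23 TPM, and Cox4i2, the alternative isoform of subunit 4, had 2.46 TPM.

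Most members varied little between libraries of a group. The pooled SD within groups, on the log2 CPM scale, had a median of 0.20 over the 83 members and 0.27 over the 21343 genes tested. This comparison was not matched for expression level, and most members are more highly expressed than most genes. Beside protein-coding genes alone the gap was small. The median standard error of the femoral knockout change was 0.148 for members, 0.157 for protein-coding genes and 0.216 for all genes tested. Only 3 members exceeded an SD of 0.5, against 28.8% of all genes. These were Cox6a2 with an SD of 1.74, Cox8b with 1.24 and Cox7a1 with 0.84, the muscle-type isoforms of 3 complex IV subunits.

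On the CPM scale, 1 library had the highest summed level in every complex. Summed over all members, the level was 7693, 9637 and 7099 CPM in the femoral controls, 6598, 8315 and 8307 in the femoral knockouts, 7171, 7525 and 6719 in the carotid controls, and 6395 and 7001 in the carotid knockouts. Femoral control replicate 2 stood above all other libraries, and the groups of each vessel overlapped. That library held the highest CPM value of 72 of the 83 members, against 12.8% of all genes tested. In complex II its sum was 567 CPM, against 540 CPM in femoral knockout replicate 3. On the TPM scale some of the 72 were higher in another library. Atp5b had 904 TPM there and 934 in femoral knockout replicate 3, and Cox6a1 had 925 and 1013 TPM. Femoral control replicate 2 was also the library highest in skeletal muscle markers and in the 8 adipocyte markers (3341 CPM). Carotid knockout replicate 1 held the lowest CPM value of 34 members and femoral knockout replicate 1 of 22, against 10.8% and 9.95% of all genes tested. These 2 libraries had the lowest skeletal muscle and smooth muscle markers of their vessels (smooth muscle 6896 and 7611 CPM). In adipocyte markers, femoral knockout replicate 1 was lowest of its vessel (712 CPM), and carotid knockout replicate 1 was not (752 CPM). By complex, complex I summed to 2834 CPM in femoral control replicate 2 and to 1853 and 1878 CPM in the first knockout libraries of the femoral and carotid artery, and complex V to 3380, 2426 and 2295 CPM. The part of muscle or other surrounding tissue in these totals was not tested.

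**Figure D1:**
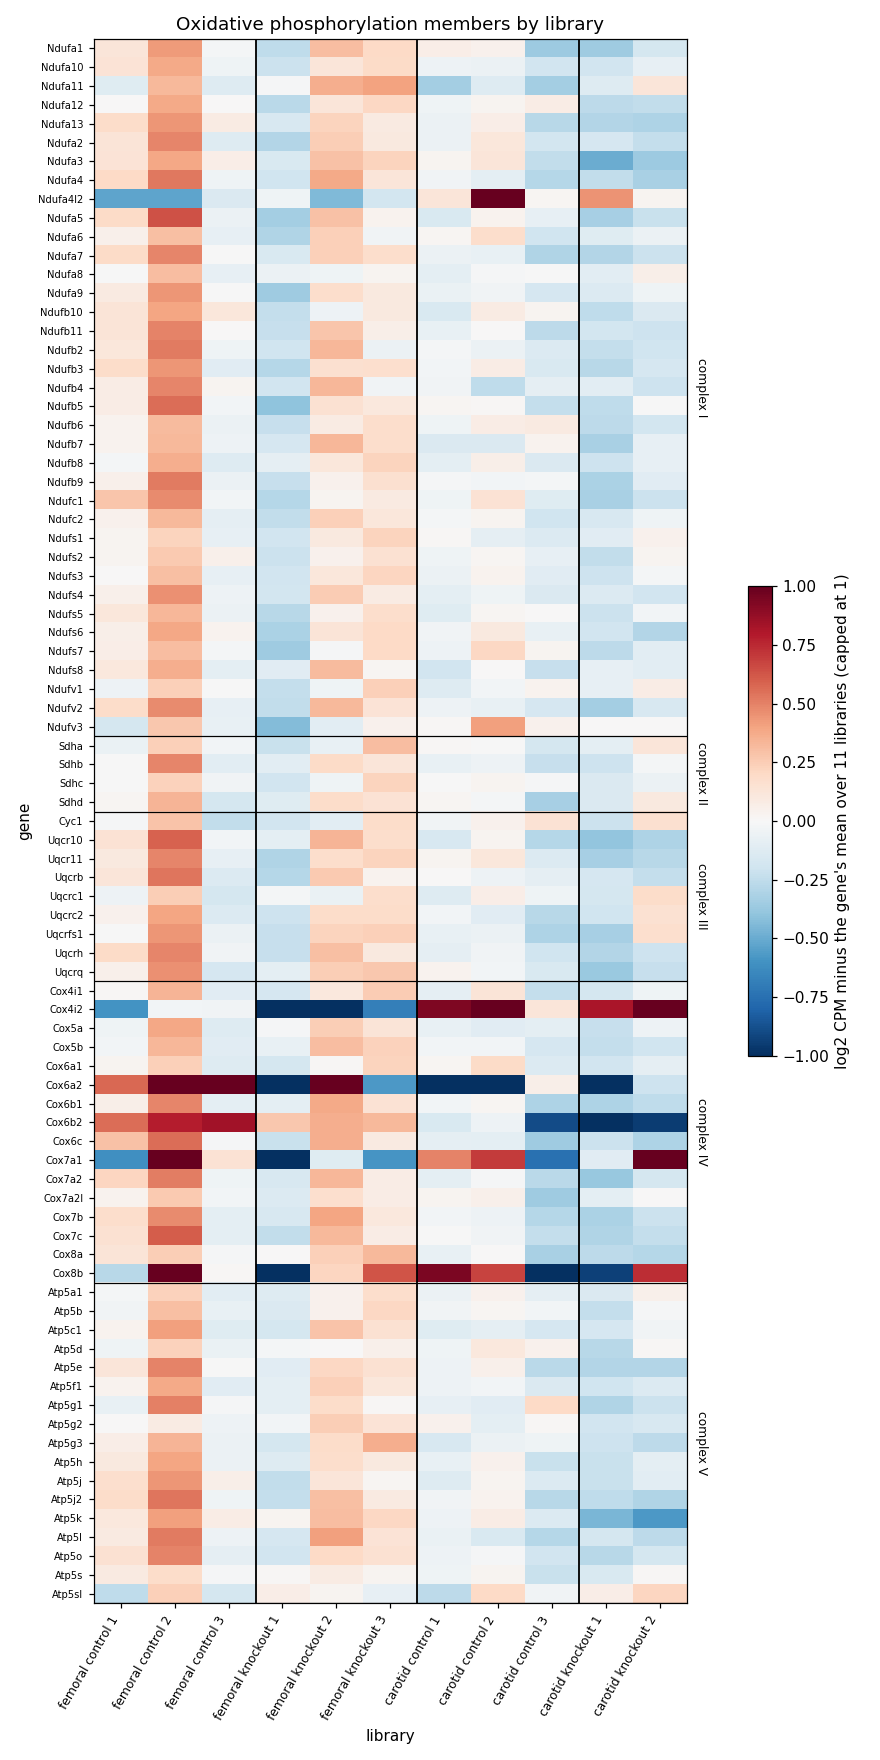
Heat map of the 83 tested members (rows, grouped by complex) in the 11 libraries (columns, grouped by vessel and genotype). Colour gives log2 CPM minus the gene's mean over all libraries, capped at 1 in either direction. The column of femoral control replicate 2 is red through all complexes except at Cox4i2 and Ndufa4l2, and Cox4i2, Cox6a2, Cox6b2, Cox7a1, Cox8b and Ndufa4l2 stand out from their neighbours.

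**Figure D2:**
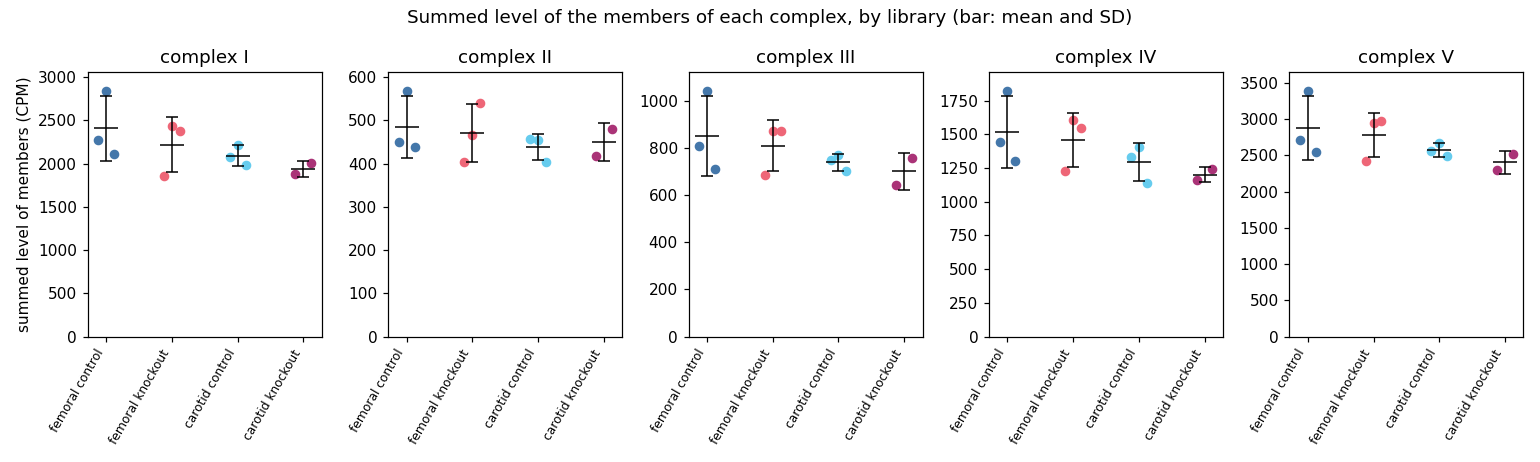
Summed level in CPM of the members of each complex, 1 point per library, with a bar for the group mean and SD and the axis starting at 0. Knockout and control points of a vessel overlap in every complex in both vessels. The highest point in each panel is femoral control replicate 2.

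Promoters are shown for 5 members: 2 broadly expressed members that hold both the NRF1 and the ETS letters (Cox6a1 and Atp5k), the common and the restricted isoform of subunit 6b (Cox6b1 and Cox6b2), and the muscle-type isoform Cox8b. Each runs from 250 bases before to 50 after the annotated start, from RefSeq on GRCm38.p6, written 5′ to 3′ on the gene's own strand. Capitals mark, on either strand, the letters GCATGCGC (from the site of nuclear respiratory factor 1, NRF1, a factor unrelated to Nrf3), CCGGAAG (ETS factors such as GABP) and, in Cox8b, CAGCTG (an E-box). In Cox6a1 and Atp5k the NRF1 letters occur on both strands, as overlapping matches that form 1 run of capitals.
Cox6a1, chr5:115348909-115349208, minus strand: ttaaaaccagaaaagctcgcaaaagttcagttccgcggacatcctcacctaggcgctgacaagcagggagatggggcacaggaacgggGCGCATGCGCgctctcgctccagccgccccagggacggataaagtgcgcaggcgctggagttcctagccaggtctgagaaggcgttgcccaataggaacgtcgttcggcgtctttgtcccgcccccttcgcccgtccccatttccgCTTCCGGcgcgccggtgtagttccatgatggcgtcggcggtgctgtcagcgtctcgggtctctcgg
Atp5k, chr5:108434350-108434649, minus strand: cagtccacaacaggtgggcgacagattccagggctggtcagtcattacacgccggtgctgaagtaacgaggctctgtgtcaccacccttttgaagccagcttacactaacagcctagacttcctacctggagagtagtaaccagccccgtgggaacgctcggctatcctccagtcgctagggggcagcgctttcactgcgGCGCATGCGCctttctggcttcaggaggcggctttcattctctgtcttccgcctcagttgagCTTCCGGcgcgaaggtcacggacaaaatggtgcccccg
Cox6b1, chr7:30626065-30626364, minus strand: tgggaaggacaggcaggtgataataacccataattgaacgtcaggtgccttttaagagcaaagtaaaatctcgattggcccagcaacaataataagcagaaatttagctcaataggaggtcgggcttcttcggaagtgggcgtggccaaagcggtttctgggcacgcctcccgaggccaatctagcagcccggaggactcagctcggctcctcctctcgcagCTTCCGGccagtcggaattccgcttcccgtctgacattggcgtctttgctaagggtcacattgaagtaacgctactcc
Cox6b2, chr7:4753045-4753344, minus strand: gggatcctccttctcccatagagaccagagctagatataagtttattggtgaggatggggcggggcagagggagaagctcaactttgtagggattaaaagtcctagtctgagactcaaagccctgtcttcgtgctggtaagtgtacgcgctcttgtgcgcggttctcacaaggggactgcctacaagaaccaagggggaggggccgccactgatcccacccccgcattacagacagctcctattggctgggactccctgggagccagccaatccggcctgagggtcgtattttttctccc
Cox8b, chr7:140900397-140900696, minus strand: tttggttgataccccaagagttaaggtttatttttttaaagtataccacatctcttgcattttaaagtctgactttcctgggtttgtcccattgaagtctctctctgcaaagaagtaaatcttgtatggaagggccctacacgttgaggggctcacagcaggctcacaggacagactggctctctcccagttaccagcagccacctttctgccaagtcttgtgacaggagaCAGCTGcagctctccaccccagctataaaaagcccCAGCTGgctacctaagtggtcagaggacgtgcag
RefSeq promoters were matched for 69 of the 85 members. The NRF1 letters, searched on both strands, were in 14.5% of them and in 2.81% of all 27025 promoters of the same length. The ETS letters were in 21.7% of members and 9.12% of all promoters, and AAGATGGCG (YY1) in 10.1% and 1.5%. TGACNNNGC, the core of the antioxidant response element bound by CNC factors with small Maf proteins, was in 13.0% of members and 12.5% of all promoters. The E-box letters were in 8.70% and 16.1%. Median GC content was 57.3% in members and 52.7% in all promoters. These matches describe the letters in this window only.

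In the wire-injured femoral artery, 0 of 83 members passed the test of knockout against control (edgeR quasi-likelihood test, adjusted p under 0.05), where 2.51% of all genes tested were called. DESeq2 also called 0. Unadjusted p-values lay under 0.05 for 2 members, against 19.5% of all genes. The fitted log2 change was negative for 71 members, against 53.0% of all genes, with a median of −0.11 beside −0.02 over all genes. For 74 members the 95% interval of the change lay within 1.5-fold in either direction, against 8354 of the 21343 genes tested and 7976 of 15625 protein-coding genes. These counts were not matched for expression level. The median was 0.04 without femoral control replicate 2 and 0.01 without femoral knockout replicate 1, −0.18 without femoral control replicate 3, −0.17 without femoral knockout replicate 2, and −0.05 with skeletal muscle markers as a covariate. All 18 of those markers had a negative fitted change here, so the covariate fit cannot tell skeletal muscle and genotype apart.

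By complex, the femoral median log2 change was −0.13 for complex I, −0.05 for complexes II and III, −0.11 for complex IV and −0.04 for complex V. Among abundant members, Atp5b had a log2 change of −0.03 ± 0.13 (SE), Cox4i1 −0.02 ± 0.15, Sdha −0.04 ± 0.14, Atp5e −0.13 ± 0.14 and Cox6c, a small complex IV subunit, −0.20 ± 0.17. Only 3 members were lower in every femoral knockout library than in every control, Cox4i2, Cox6b2 and Ndufb10, and 0 were higher in every one, against 12.1% and 13.3% of all genes. Ndufb10, an accessory subunit of the complex I membrane arm, had 67.8, 81.3 and 66.8 CPM in controls and 52.5, 59.9 and 66.2 CPM in knockouts, a log2 change of −0.27 ± 0.11 with an adjusted p of 0.218 in edgeR. The lowest fitted changes were −1.18 for Cox6a2, −1.16 for Cox7a1 and −0.94 for Cox4i2. With 1 library left out, those of Cox6a2 ran from −3.51 to −0.13 and those of Cox7a1 from −1.52 to −0.47. At the upper end, Ndufa11, another membrane-arm subunit, had a log2 change of 0.22 ± 0.15, Ndufa4l2 0.18 ± 0.29 and Atp5g2, a c-subunit gene of ATP synthase, 0.10 ± 0.09. None of these passed the test.

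In the ligated carotid artery, 0 of 83 members passed the same edgeR test, where 0.923% of all genes were called. Unadjusted p-values lay under 0.05 for 3 members, against 14.5% of all genes, and DESeq2 called 1, Atp5k. The log2 change was negative for 64 members, against 49.5% of all genes, and its median was −0.11 beside 0.00 over all genes. With 2 knockout libraries, 61 members had intervals within 1.5-fold, against 7863 of the 21343 genes tested and 7613 of 15625 protein-coding genes. In 26 members both knockout libraries lay below all 3 controls, and in 0 members above them, against 15.0% and 16.4% of all genes. The median stayed between −0.17 and −0.08 when any carotid library was left out, and was −0.22 with brown adipocyte markers as a covariate.

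Medians by complex in the carotid artery were −0.12 for complex I, 0.04 for complex II, −0.14 for complex III, −0.15 for complex IV and −0.11 for complex V. Atp5k, the e subunit that helps ATP synthase form dimers, had 34.3, 37.4 and 32.3 CPM in the controls and 26.0 and 23.9 CPM in the knockouts, with no overlap. Its log2 change was −0.48 ± 0.13 with an adjusted p of 0.118 in edgeR. The DESeq2 value was 0.0268, and the adjusted p ranged from 0.0268 to 0.352 over all alternatives. In the femoral artery the same gene had 38.4, 47.4 and 37.6 CPM in controls and 36.3, 44.1 and 41.0 in knockouts, which overlapped. Ndufa3 had 52.4, 55.8 and 43.1 CPM in carotid controls and 36.3 and 40.0 in knockouts, a log2 change of −0.40 ± 0.16 with an edgeR adjusted p of 0.275. Ndufa11 went the other way without passing, at 44.8, 51.9 and 44.9 CPM in controls and 51.9 and 61.8 CPM in knockouts, a log2 change of 0.27 ± 0.17. Subunits of complex II lay close together, from −0.10 to 0.08.

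**Figure D3:**
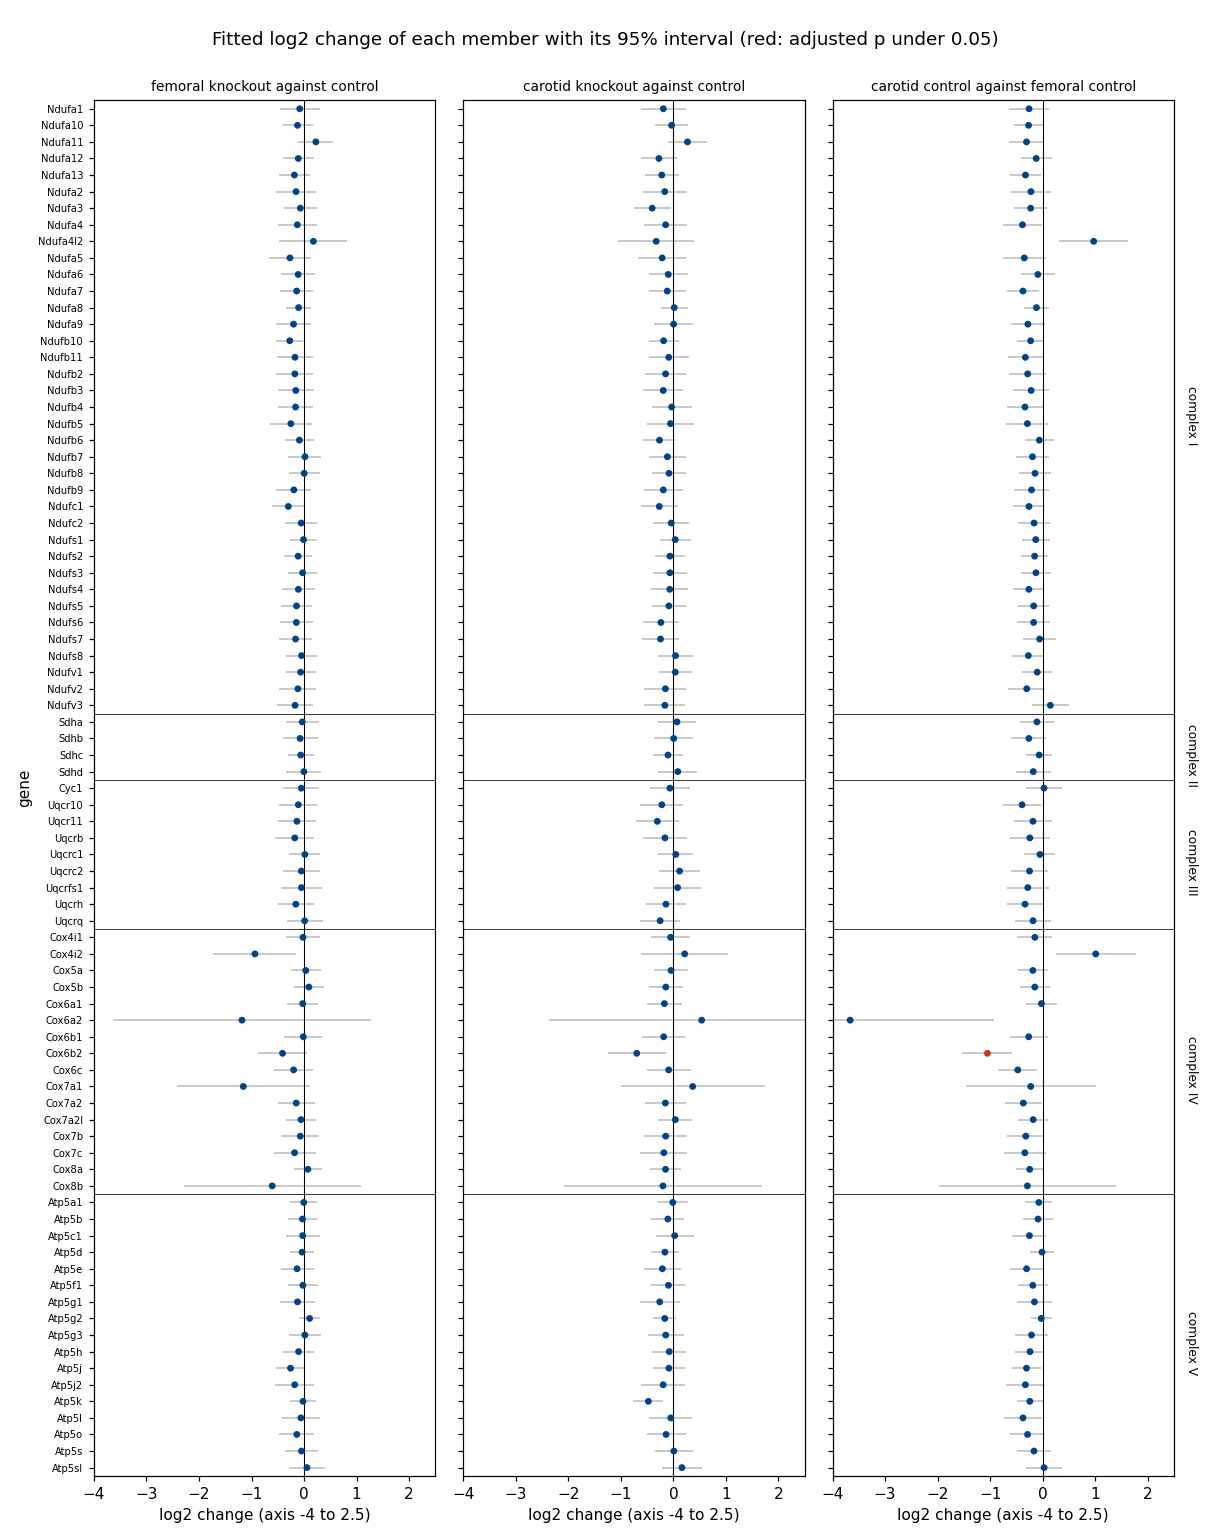
Fitted log2 change of each tested member (point) with its 95% interval (line), grouped by complex, for the knockout in the femoral artery, the knockout in the carotid artery, and carotid against femoral controls. Red marks an adjusted p under 0.05, which holds for Cox6b2 in the third panel alone. Most points lie just left of 0, and the widest intervals belong to Cox6a2, Cox7a1 and Cox8b, some running past the axis.

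Averaged over both vessels, the knockout effect again called 0 of 83 members in edgeR, where 6.31% of all genes were called. The median was −0.11 beside −0.02 over all genes, and 75 members had a negative change against 52.6% of all genes. Intervals lay within 1.5-fold for 78 members, against 10431 of the 21343 genes tested and 9709 of 15625 protein-coding genes. The median was −0.05 without femoral control replicate 2, −0.06 without femoral knockout replicate 1 and −0.16 without femoral knockout replicate 2 or femoral control replicate 3. Unadjusted p-values lay under 0.05 for 5 members, against 22.8% of all genes. DESeq2 called 1, Cox6b2. The effect in the carotid minus that in the femoral artery was called for 0 members, where 0.00469% of genes were, and had a median of 0.00 beside 0.01 over all genes. That median ran from −0.17 without femoral control replicate 2 to 0.10 without femoral control replicate 3 when 1 library was left out. It was negative for 41 members, against 48.8% of all genes. In that contrast 2 members had an unadjusted p under 0.05, against 8.50% of all genes, and DESeq2 called 0. They were Atp5k, with a difference of −0.46 ± 0.17 on the log2 scale, and Cox4i2, with 1.15 ± 0.52. The largest differences, 1.72 for Cox6a2 and 1.52 for Cox7a1, ran from 0.66 to 4.04 and from 0.77 to 2.01 over libraries left out. A p that misses the threshold does not show that the vessels responded alike.

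Cox6b2 encodes the restricted isoform of subunit 6b of complex IV, known for its expression in testis. It had 5.75, 6.71 and 6.97 CPM in femoral controls and 4.69, 5.03 and 4.89 in femoral knockouts, then 3.51, 3.77 and 2.10 in carotid controls and 1.83 and 2.02 in carotid knockouts. In each vessel every knockout library lay below every control. The log2 change was −0.41 ± 0.21 in the femoral and −0.70 ± 0.25 in the carotid artery, and −0.55 ± 0.16 on average, with an edgeR adjusted p of 0.0722. That p was 0.0172 with DESeq2, 0.0356 with the replicate block, 0.0466 with brown adipocyte markers as a covariate and 0.0220 without carotid control replicate 3, within a range of 0.0172 to 0.244 over all alternatives. The common isoform Cox6b1 overlapped between genotypes in both vessels, with log2 changes of −0.02 ± 0.17 and −0.19 ± 0.19. On the length-scaled counts, Cox6b2 made up 4.26% ± 0.944 (SD, n = 3) of the Cox6b pair in femoral controls, 3.23% ± 0.405 (n = 3) in femoral knockouts, 2.42% ± 0.436 (n = 3) in carotid controls and 1.73% ± 0.0653 (n = 2) in carotid knockouts.

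Between the control groups, Cox6b2 was the 1 member called, and it was lower in the carotid artery, where 3.22% of all genes were called lower and 6.21% in either direction. Its log2 difference was −1.05 ± 0.22 with an adjusted p of 0.0163 in edgeR. It no longer passed when femoral control replicate 2 (adjusted p of 0.0610, log2 difference −1.03) or replicate 3 (0.0598, −0.99) was left out, or with skeletal muscle markers as a covariate (0.0739, −1.15). Over all alternatives the adjusted p ranged from 9.6e-05 to 0.0739. Of the 83 members, 78 were negative, against 49.5% of all genes, with a median of −0.23 beside 0.00 over all genes. Every carotid control was below every femoral control for 15 members and above for 2, against 13.6% and 11.7% of all genes. Unadjusted p-values lay under 0.05 for 12 members, against 20.2% of all genes. The median was −0.07 without femoral control replicate 2, −0.11 with the skeletal muscle covariate and −0.41 with the brown adipocyte covariate. Skeletal muscle markers were all lower, and brown adipocyte markers mostly higher, in carotid controls by fitted difference. Fits with either covariate therefore cannot tell marker tissue and vessel apart. This comparison shares its femoral controls with the femoral knockout comparison and its carotid controls with the carotid one. Vessel and kind of injury cannot be told apart, since each vessel had its own injury.

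Among the 15 were Cox6c, Ndufa7 and Atp5l. Cox6c had 145, 175 and 118 CPM in femoral controls and 112, 111 and 92.8 CPM in carotid controls, a log2 difference of −0.47 ± 0.17 with an edgeR adjusted p of 0.142. The 2 members higher in every carotid control were Cox4i2 and Ndufa4l2, which are both known as genes induced by low oxygen. Ndufv3, an accessory subunit of the NADH-binding module of complex I, had a log2 difference of 0.15 ± 0.16.

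Cox4i2, the subunit 4 isoform known from lung, had 1.23, 1.83 and 1.82 CPM in femoral controls and 3.55, 4.26 and 2.02 CPM in carotid controls, a log2 difference of 1.01 ± 0.35 with an edgeR adjusted p of 0.126. The difference was 0.37 with the brown adipocyte covariate and 0.21 with both covariates, and its adjusted p ranged from 0.0439 with DESeq2 to 0.898 over all alternatives. The brown adipocyte covariate itself largely followed the vessel, at a mean log2 CPM of 1.28 to 2.33 in femoral and 2.16 to 4.13 in carotid controls. A fit with it therefore cannot tell brown fat and vessel apart. In femoral knockouts it had 0.529, 0.857 and 1.16 CPM, all below the controls, with a log2 change of −0.94 ± 0.36 and an adjusted p of 0.181. In carotid knockouts it had 3.28 and 4.33 CPM, within the range of or just above the controls. Ndufa4l2, a paralogue of Ndufa4, had 15.1, 15.1 and 19.7 CPM in femoral controls and 23.7, 52.0 and 22.0 CPM in carotid controls. Its log2 difference was 0.97 ± 0.29 with an edgeR adjusted p of 0.0842, and 0.46 without carotid control replicate 2. Over all alternatives the difference ranged from 0.29 to 1.19 and its adjusted p from 0.0133 to 0.795. Knockout levels of Ndufa4l2 were 21.1, 16.1 and 19.2 CPM in the femoral and 29.7 and 22.2 CPM in the carotid artery, overlapping with controls. Both genes overlap a more strongly counted gene on the opposite strand, Bcl2l1 and Shmt2, and the strand setting of the counting is not given in the sources used here, so reads of the partners cannot be told apart from theirs.

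The muscle-type isoforms overlapped between genotypes in both vessels. Cox6a2, found in heart and skeletal muscle, had 3.39, 27.3 and 9.59 CPM in femoral controls, 0.825, 15.4 and 1.53 in femoral knockouts, 0.640, 0.151 and 2.37 in carotid controls and 1.09 and 1.98 in carotid knockouts. Within each group its highest library was also the one highest in summed skeletal muscle markers. Its log2 difference between vessels was −3.66 ± 1.24 (adjusted p = 0.121 in edgeR), and −1.37 with skeletal muscle markers as a covariate. That covariate largely followed the vessel, at a mean log2 CPM of 5.08 to 8.21 in femoral and 1.18 to 5.42 in carotid controls. A fit with it therefore cannot tell skeletal muscle and vessel apart. As a share of the Cox6a pair on length-scaled counts, Cox6a2 ran from 1.34 to 8.65% in femoral controls, from 0.379 to 5.90% in femoral knockouts, from 0.0541 to 1.05% in carotid controls and from 0.507 to 0.853% in carotid knockouts. Cox6a2 also overlaps a gene on the opposite strand, Itgad, with at most 174 counts in a library. In the carotid libraries Cox6a2 had 8 to 130 counts, so reads of Itgad cannot be told apart from its own.

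Cox8b, known from muscle and brown fat, had 7.02, 23.8 and 8.58 CPM in femoral controls, 2.83, 9.88 and 13.2 in femoral knockouts, 16.3, 13.6 and 2.30 in carotid controls and 4.47 and 14.2 in carotid knockouts. Among the carotid libraries, the low ones were those with 2.31 and 14.4 CPM of Ucp1. Ucp1 is 1 of 9 listed brown adipocyte markers, whose sum was 426 and 233 CPM in these libraries. In the other carotid libraries that sum was 380, 338 and 583 CPM. As a mean of log2 CPM over the tested markers, the low libraries had 2.16 and 3.21, and the others 4.13, 3.64 and 5.13. Cox7a1, the muscle and brown fat isoform of subunit 7a, had 2.61, 10.0 and 4.43 CPM in femoral controls and 1.31, 3.68 and 2.65 in femoral knockouts. Carotid controls had 5.65, 6.51 and 2.39 CPM and carotid knockouts 3.71 and 8.79 CPM of it, the last in the library with 204 CPM of Ucp1. Its log2 change of 0.37 ± 0.62 in the carotid artery was −0.39 without that library, and groups overlapped in both vessels. On length-scaled counts, Cox8b made up at most 17.9% of its pair with Cox8a in femoral controls, 2.97 to 10.2% in femoral knockouts, 3.01 to 15.7% in carotid controls and 5.50 to 15.8% in carotid knockouts. Cox7a1 made up 12.8% ± 5.87 (SD, n = 3), 6.92% ± 2.12 (n = 3), 14.2% ± 4.89 (n = 3) and 19.0% ± 7.65 (n = 2) of its pair with Cox7a2 in the same groups. Averaged over both vessels, the log2 change was −0.40 ± 0.57 for Cox8b and −0.39 ± 0.42 for Cox7a1, each smaller than its error. Leaving out 1 library gave −0.93 (without carotid knockout replicate 2) to −0.03 (without femoral control replicate 2) for Cox8b, and −0.77 to −0.05 for Cox7a1 without the same 2 libraries. With the brown adipocyte covariate the averages were −1.03 and −0.78. The part of muscle and fat in these isoform levels was not tested beyond the covariates given here.

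The common counterparts of these isoforms scattered less within groups than the isoforms did, with pooled SDs of 0.15 to 0.23 on the log2 CPM scale for the 4 named next. Cox6a1 had log2 changes of −0.03 ± 0.13 in the femoral and −0.17 ± 0.15 in the carotid artery, Cox7a2 −0.15 ± 0.16 and −0.15 ± 0.18, and Cox8a 0.07 ± 0.12 and −0.15 ± 0.13. Ndufa4 had −0.13 ± 0.17 and −0.15 ± 0.19, and Cox7b, a small subunit of complex IV, −0.07 ± 0.16 and −0.15 ± 0.18. Cox7a2l, which joins complexes III and IV into supercomplexes, had −0.06 ± 0.13 and 0.04 ± 0.15. All 6 overlapped between genotypes in both vessels. On the positive side of the average effect, Ndufa11 had 0.25 ± 0.11 with an edgeR adjusted p of 0.227, Atp5sl, which the symbol rule takes in although it is known as an assembly-related protein, 0.11 ± 0.12, and Sdhd, a membrane anchor of complex II, 0.04 ± 0.11.

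**Figure D4:**
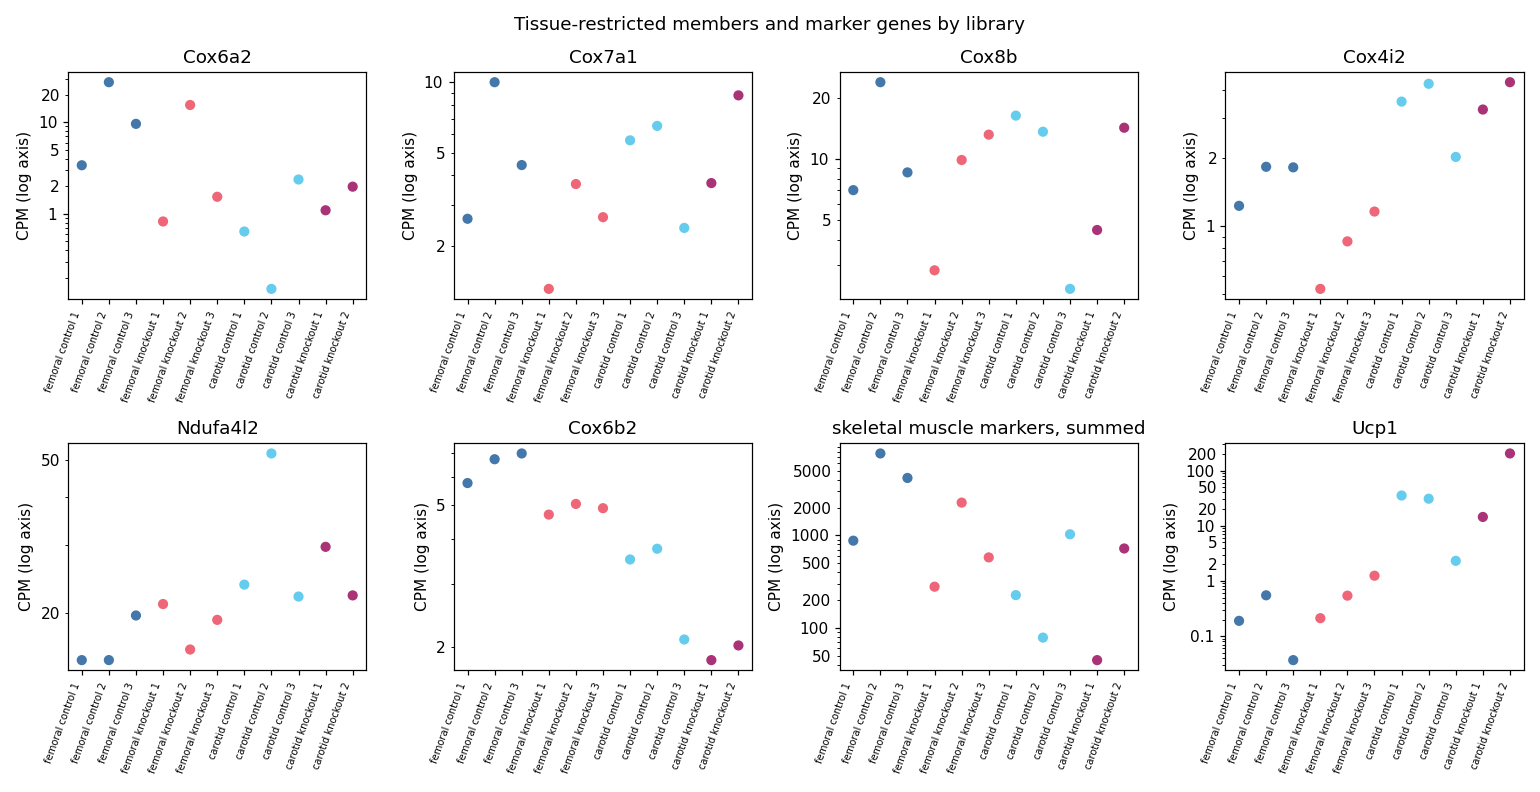
Level in CPM (log axes) of 6 isoform genes, of the summed skeletal muscle markers and of Ucp1 in the 11 libraries, coloured by group. Cox6b2 lies between 5.75 and 6.97 CPM in femoral controls and at 1.83 and 2.02 CPM in carotid knockouts, whereas Cox6a2 and the muscle markers scatter widely within groups and are both highest in femoral control replicate 2.

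Among genes that work with these subunits, the 13 subunits encoded by mitochondrial DNA gave 0 calls in each of the 5 comparisons in edgeR. Their median log2 change was −0.22 in the femoral and −0.07 in the carotid artery, and −0.41 between the controls, where 9 of 13 were lower in every carotid library, against 13.6% of all genes. Their sum in the femoral knockouts was 16767, 25989 and 26132 CPM, against 24425, 31366 and 22506 CPM in controls, so that these groups overlapped as the nuclear members did. The 16 genes of the tricarboxylic acid cycle and the 15 of electron carriers and coenzyme Q synthesis also gave 0 calls in each comparison with edgeR. Unadjusted p-values under 0.05 were held by 0 of the 13 mitochondrially encoded genes in each knockout comparison and by 4 between the controls. Among the tricarboxylic acid cycle genes there were 0 and 1, in the same order. Among the carriers there were 1 in the femoral artery, 0 in the carotid artery, 3 on average, 1 for the difference between vessels and 2 between the controls. Of all genes tested, 19.5%, 14.5%, 22.8%, 8.50% and 20.2% had such unadjusted p-values in these 5 comparisons, in the order given for the carriers. DESeq2 called 1 of these 3 lists' genes in the femoral knockout comparison, Adck4 of coenzyme Q synthesis, and 1 between the controls, ND6 of the mitochondrially encoded genes, and 0 elsewhere.

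Of 44 assembly factors, 2 fell in the average knockout effect and 0 rose in edgeR, where 6.31% of all genes were called, so that the share was no higher than the background. DESeq2 called 4, Coa3, Cox20, Ndufaf2 and Uqcc2. Cox20, which guides the mitochondrially encoded subunit 2 into complex IV, had 16.6, 17.4 and 14.5 CPM in femoral controls and 10.4, 13.3 and 12.5 in knockouts, and 14.4, 15.8 and 12.7 against 11.7 and 10.7 in the carotid artery. Its average log2 change was −0.39 ± 0.10 with an edgeR adjusted p of 0.0452. Coa3, which stabilises newly made subunit 1 of complex IV, fell by 0.27 ± 0.07 on the log2 scale (adjusted p = 0.0485 in edgeR). Knockout libraries lay below all controls of their vessel for Cox20 in both arteries and for Coa3 in the carotid artery.

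Of 16 regulators of mitochondrial biogenesis, 1 rose on average, a share close to the 6.31% of all genes called. Ppargc1b, the coactivator PGC-1 beta, had 5.39, 5.25 and 4.56 CPM in femoral controls and 6.58, 6.22 and 7.42 in knockouts, and 4.17, 3.44 and 2.48 against 5.07 and 7.05 CPM in the carotid artery, with no overlap in either. Its average log2 change was 0.63 ± 0.16 with an edgeR adjusted p of 0.0420. Of 6 carriers and inhibitors, Ucp2, an inner-membrane carrier abundant in macrophages and lymphocytes, rose in the femoral artery from 256, 254 and 176 CPM to 428, 404 and 332 CPM, a log2 change of 0.76 ± 0.16 with an edgeR adjusted p of 0.0404. On average over both vessels Ucp2 rose by 0.56 ± 0.12 (adjusted p = 0.0238 in edgeR). In the carotid artery it had 249, 213 and 202 CPM in controls and 309 and 261 CPM in knockouts, without overlap, a log2 change of 0.36 ± 0.18 that did not pass (adjusted p = 0.391 in edgeR). Alongside, the 8 macrophage markers summed to 1990 to 2688 CPM in femoral controls and 2618 to 4514 CPM in femoral knockouts, and the 6 neutrophil markers to 89.1 to 238 and 275 to 774 CPM. In the carotid artery the macrophage sums overlapped, at 2752 to 4494 CPM in controls and 3263 and 4145 CPM in knockouts. Neutrophil sums there were 102 to 314 CPM in controls and 442 and 553 CPM in knockouts. Summed T cell markers were higher in every knockout library than in every control of its vessel. The part of these cells in the rise of Ucp2 was not tested. These 4 genes sat near the threshold, and each call was lost with the skeletal muscle covariate, with an edgeR adjusted p of 0.0857 for Cox20, 0.114 for Coa3, 0.0846 for Ppargc1b, 0.0665 for the average and 0.100 for the femoral change of Ucp2. With the replicate block Cox20, Coa3 and Ppargc1b lost theirs (adjusted p = 0.0592, 0.111 and 0.115 in edgeR), and both calls of Ucp2 held. Of the 18 skeletal muscle markers, 17 had a negative average knockout effect and 18 a negative femoral one. The fits with that covariate therefore cannot tell skeletal muscle and genotype apart. With libraries left out in turn, Cox20 kept its call only without femoral knockout replicate 3 or carotid control replicate 3, over a range of adjusted p from 0.0484 to 0.126. Coa3 kept it only without femoral knockout replicate 3 (0.0139 to 0.147), Ppargc1b only without carotid control replicate 1 (0.0240 to 0.133), and the femoral change of Ucp2 only without femoral knockout replicate 3 (0.0181 to 0.147). The average for Ucp2 lost its call without femoral knockout replicate 1 or 2, carotid control replicate 2 or 3, or carotid knockout replicate 1, and ranged from 0.0137 to 0.111.

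**Figure D5:**
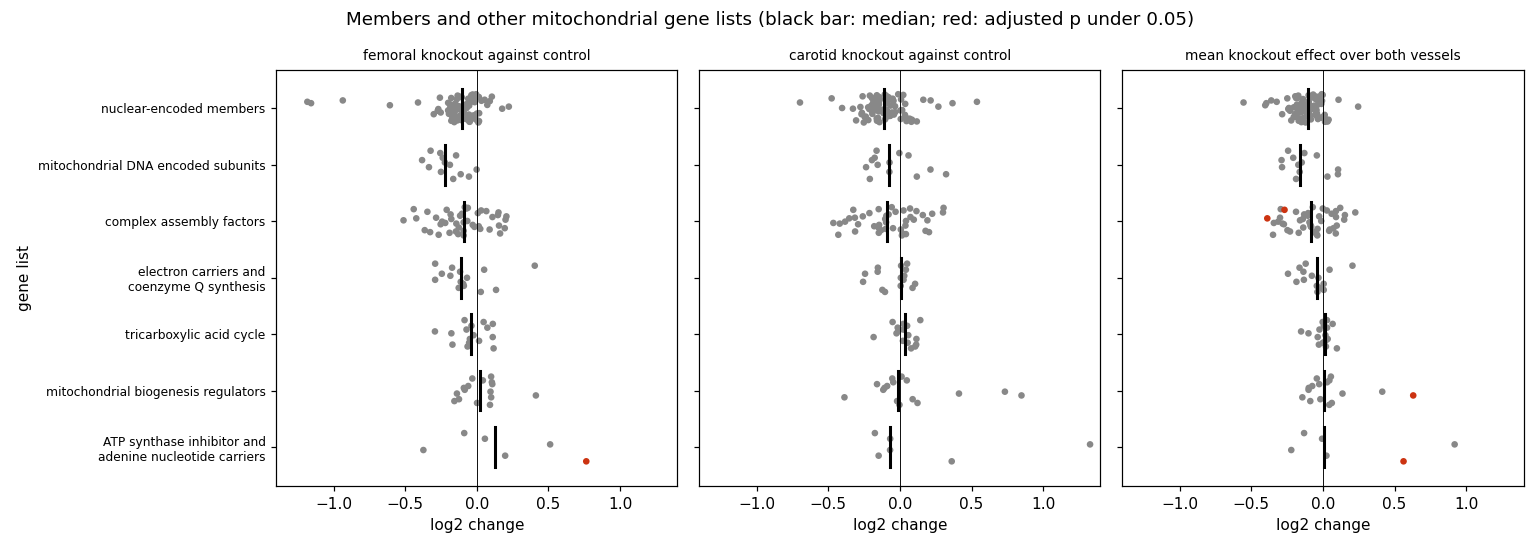
Fitted log2 change of every tested gene of the nuclear-encoded members and of 6 other mitochondrial lists (grey points, red where the adjusted p is under 0.05), with a black bar at each list's median, for both knockout comparisons and their average. The members gather just below 0, and the red points are Ucp2, Cox20, Coa3 and Ppargc1b.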

How the data were processed

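The authors deposited 1 table of raw counts per gene for 11 libraries, all of them whole numbers. Per the submitters' processing notes, the tools were edgeR, DESeq, DESeq2, HTSeq and HISAT2, with no version or role, and the assembly was mm9. All 85 members, joined by NCBI gene ID, overlapped their GRCm38 RefSeq position, so positions are given as GRCm38. The strand setting is not given in the sources used here, and 25 members overlap another listed gene, 21 of them on the opposite strand. Pseudogene rows named for subunits held 0.133 to 0.172% as many counts as the members.

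Computed here were CPM with trimmed-mean factors (0.963 to 1.03), TPM from the table's gene lengths, and a fit of all 11 libraries with edgeR 4.0.16 under R 4.3.3 (4 group means, 7 residual degrees of freedom, common biological coefficient of variation 25.6%). The filter filterByExpr kept 21343 genes. Tests were two-sided quasi-likelihood tests with Benjamini-Hochberg adjustment over all of them, a threshold of 0.05, and the SE from the F statistic. The script was tested on simulated data. Alternatives used DESeq2 1.42.0, other scalings, no filter, a replicate block and marker covariates. Tables and figures used Python 3.11.15, pandas 2.3.3 and matplotlib 3.10.9.

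Members, lists and the naming rule were chosen with earlier results of these data known. Named were members called in any of 5 contrasts, the 3 highest and 3 lowest log2 changes of each, tissue-restricted isoforms with their counterparts, the 2 most abundant members of each complex, up to 3 called genes of each other list, and Nfe2l3. Ndufb10, Ndufa7 and Atp5l were named after their values were seen. Ndufab1, Usmg5 and 2010107E04Rik are subunits that the symbol rule does not reach, and Ndufaf8 was not analysed here. Same-numbered femoral control and knockout libraries had r = 0.17, 0.18 and 0.12 for their deviations from group means. Differently numbered ones had −0.18 to 0.01. In the carotid artery same-numbered libraries had r of −0.12 and −0.15, and controls of the vessels 0.11, −0.04 and 0.14. Deviations within so small a group depend on each other, so these values cannot decide whether libraries were paired. The sources used here name no pairs. The main p-values come from the fit without pairing, and the replicate block is an alternative. The second carotid knockout library is numbered 2 in its title and 3 in its description.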

Additional observations from a re-analysis of the deposited data

How the results depend on the processing

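The median log2 change of the members turned positive in the femoral comparison without femoral control replicate 2 or femoral knockout replicate 1, and that of the difference between vessels, near 0, changed sign under several alternatives. It stayed negative under every alternative for the carotid, average and control comparisons. The count of members called stayed at 0 under every alternative for the femoral knockout comparison and for the difference between vessels. For carotid knockout it was 1 with DESeq2. For the average effect it was 1 with DESeq2, 1 with the replicate block and 1 with the brown adipocyte covariate, and 0 to 1 when libraries were left out. For the controls it was 4 with DESeq2 (Cox4i2, Cox6a2, Cox6b2 and Ndufa4l2), 3 without the filter, 4 with the brown adipocyte covariate, 0 with the skeletal muscle covariate, 0 with both, and 0 to 1 when libraries were left out. The share of all genes called under each alternative is not given here, so these counts do not set the members against other genes. The same holds for the DESeq2 counts given further above. The replicate block changed no other call of a member, and ended those of Cox20, Coa3 and Ppargc1b. In the carotid artery Cox7a1 was −0.080 with the replicate block, −0.28 with the brown adipocyte covariate and −0.16 with both covariates. It was −0.39 to 0.85 over libraries left out. The average for Sdhd, 0.04, was −0.0094 with the replicate block, −0.065 and −0.046 with the brown and both covariates and −0.024 to 0.12 over libraries left out. The femoral change of Ndufa4l2 was −0.12 with the skeletal muscle and −0.14 with both covariates, that of Cox6a2 0.060 with both, and the control difference of Ndufv3 −0.024 with the brown and −0.041 with both. The causes were not tested. Using both covariates, and numbering the carotid block by the description, were chosen after seeing the data. With 2 carotid knockout libraries, leaving either out assumes that the other varies like the rest. Low members such as Cox4i2, at 25 to 225 counts per library, carry the most counting error.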

Other observations

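Of 3 subunits outside the symbol rule, Ndufab1, the acyl carrier protein of complex I, had log2 changes of −0.07 ± 0.17 (SE) in the femoral and −0.21 ± 0.19 in the carotid artery. Usmg5, a small ATP synthase subunit, had −0.19 ± 0.18 and −0.28 ± 0.21. The product of 2010107E04Rik, a small proteolipid of ATP synthase, had −0.16 ± 0.17 and −0.18 ± 0.19. Between controls Usmg5 stood at −0.42 ± 0.18 and 2010107E04Rik at −0.45 ± 0.17, below every complex V member (the lowest at −0.37), and Ndufab1 at −0.06 ± 0.17. None passed the edgeR test in any comparison (adjusted p = 0.157 at the least).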
